A study of Mus musculus with 12 samples.

Results

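The Cyp2 and Cyp3 genes encode liver cytochrome P450 enzymes that metabolize drugs, steroids and fatty acids. They were taken from the hepatic RNA sequencing table by name, as every gene of the Cyp2 and Cyp3 families other than the Cyp2b genes and the pseudogenes marked by the ending ps. Of 53 such names, 34 had a mean of at least 0.5 FPKM over 12 livers and are described here, among 11566 genes of the table with that mean. FPKM is a level in fragments, divided by transcript length and by the total of the library. The 34 genes fall into Cyp2a (4), Cyp2c (13), Cyp2d (5), Cyp2j (3) and Cyp3a (4), with 1 gene each of Cyp2e, Cyp2f, Cyp2g, Cyp2r and Cyp2u.

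The livers came from male C57BL/6J mice aged 21 weeks, 3 per group, which had been fed for 16 weeks. The ND group received a normal diet and the HFD group a high-fat diet. The CLE group received the HFD with 1.5% (w/w) ethanol extract of chrysanthemum leaf, and the LU group the HFD with 0.003% (w/w) luteolin, a flavone of that plant. The 3 livers of a group were chosen by the study as representative of it, and whole liver was sequenced, so fewer cells of a type and less RNA per cell cannot be told apart.

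Cytochrome P450 enzymes sit in the endoplasmic reticulum and insert an oxygen atom into their substrate, using heme and electrons passed on by P450 reductase or cytochrome b5. In the liver most of them are made by hepatocytes, and many by the hepatocytes around the central vein. Genes of these families are classic targets of the nuclear receptors PXR (Nr1i2) and CAR (Nr1i3), and some mouse members are made mainly in one sex.

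Many members are close copies of a neighbour, which bears on how far their levels can be told apart. Over the coding sequence of the GENCODE M21 transcripts, Cyp2a4 and Cyp2a5 were 98.5% identical, Cyp2c67 and Cyp2c69 97.7%, Cyp3a25 and Cyp3a59 97.5%, and Cyp2a12 and Cyp2a22 97.0%. The share of 100-base windows of a transcript that another Cyp2 or Cyp3 gene also holds was 44.1% for Cyp2c40, 36.3% for Cyp2c69, 23.7% for Cyp2c67, 14.4% for Cyp2a5 and 11.2% for Cyp2a4. It was 0% for Cyp2c29, Cyp2c38, Cyp2c39, Cyp2c55, Cyp2c70 and Cyp2e1, and 0.312% for Cyp3a11. The 60 coding bases below, from position 596 of each coding sequence, are shown because they hold 4 of the 23 bases at which Cyp2a4 and Cyp2a5 differ, printed in capitals.
Cyp2a5: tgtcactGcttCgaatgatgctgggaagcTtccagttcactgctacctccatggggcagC
Cyp2a4: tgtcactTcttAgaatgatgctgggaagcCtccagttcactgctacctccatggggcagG
Both genes lie on chromosome 7 (GRCm38), Cyp2a5 at chr7:26835305-26843548 and Cyp2a4 at chr7:26307169-26315088, on the plus strand.

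A 300-base promoter (250 bases before the start to 50 after it, RefSeq, GRCm38.p6) was matched for 29 of the 34 members. The motif CAAAGTCCA, a site of the HNF4A type, was searched on both strands and occurred in 6 of them (20.7%), compared to 0.475% of 32851 promoters of the genome. The 6 windows are shown because they fall into a group of near copies from neighbouring genes and 2 separate genes, with the motif in capitals.
Cyp2c40 (chr19:39812835-39812875, minus): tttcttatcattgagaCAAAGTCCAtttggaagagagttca
Cyp2c67 (chr19:39649143-39649183, minus): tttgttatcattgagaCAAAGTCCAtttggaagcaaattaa
Cyp2c68 (chr19:39741154-39741194, minus): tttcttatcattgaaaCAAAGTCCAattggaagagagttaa
Cyp2c69 (chr19:39886820-39886860, minus): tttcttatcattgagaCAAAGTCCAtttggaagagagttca
Cyp2c70 (chr19:40187326-40187366, minus): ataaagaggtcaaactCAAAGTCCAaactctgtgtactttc
Cyp3a11 (chr5:145879939-145879979, minus): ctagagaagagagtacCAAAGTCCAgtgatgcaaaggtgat
The half-site AGGTCA of nuclear receptors occurred in 10 of the 29 (34.5%), compared to 16.3% of all promoters. In Cyp2a4, Cyp2a5 and Cyp2d40 it lay 29 to 32 bases after the start. The promoters of Cyp3a25 and its copy Cyp3a59 each held AGGTCA on both strands, as the windows below show in capitals.
Cyp3a25 (chr5:146009758-146009804, minus): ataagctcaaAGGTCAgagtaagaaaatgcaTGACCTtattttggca
Cyp3a59 (chr5:146079071-146079117, plus): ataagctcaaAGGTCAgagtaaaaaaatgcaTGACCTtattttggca
The TATA motif TATAAA occurred in 19 of the 29 (65.5%), compared to 13.6% of all promoters. TTANGTAA was found in 1 of the 29 (3.45%; 2.32% of all promoters), AGTTCA in 5 (17.2%; 14.0%) and TTCNNNGAA in 0 (8.30%). Near copies share a promoter by descent, and a match is a run of letters only.

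The HFD group had higher levels of the Cyp2a genes and of most Cyp2c genes outside the middle of the Cyp2c cluster, together with Cyp3a11 and Cyp3a59. All 34 members together summed to 10226 ± 583 FPKM in ND livers (mean ± SD, n = 3), 16266 ± 1357 in HFD livers, 13921 ± 499 in CLE livers and 14537 ± 1164 in LU livers. Cyp2e1 alone made up 47.4% of that sum over the 12 livers, Cyp3a 15.8%, Cyp2d 14.7%, Cyp2c 11.9% and Cyp2a 5.45%. In HFD compared to ND livers, 18 of 34 members rose and 0 fell by limma, fitted to log2(FPKM + 1) and adjusted after Benjamini-Hochberg over all genes at 0.05. Over all genes tested, 12.1% differed in either direction, 9.99% rose and 2.11% fell. The median log2 fold change was 0.57 for the members and 0.11 for all genes. Of the members, 23 passed an unadjusted p of 0.05. The 3 HFD livers lay above all 3 ND livers for 21 members (29.1% of all genes), and below them for 1, Cyp2c69 (7.44% of all genes).

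In CLE compared to HFD livers, 10 members fell and 0 rose, compared to 6.03% of all genes that differed, 3.29% that fell and 2.74% that rose. Over all 11566 genes, 698 differed, compared to 28, 61 and 93 without HFD mouse 15, 12 and 18. Without HFD mouse 15, 6 members fell, and over all genes 23 fell and 5 rose. With all livers, the median was -0.42 for the members and 0.02 for all genes. In LU compared to HFD livers, 6 members fell and 0 rose, compared to 1.03% of all genes that differed, 0.726% that fell and 0.303% that rose, with medians of -0.35 and -0.02. Of the members, an unadjusted p of 0.05 was passed by 20 for CLE and by 17 for LU. Of the 10 members that fell in the CLE group, 9 were among the 18 raised by the HFD, as were all 6 that fell in the LU group. These comparisons share the HFD livers, so a high HFD value moves them together. The CLE livers lay below all HFD livers for 19 members (15% of all genes) and above them for 1 (16.3%), while the LU livers lay below for 17 (16.9%) and above for 1 (13.1%).

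**Figure D1:**
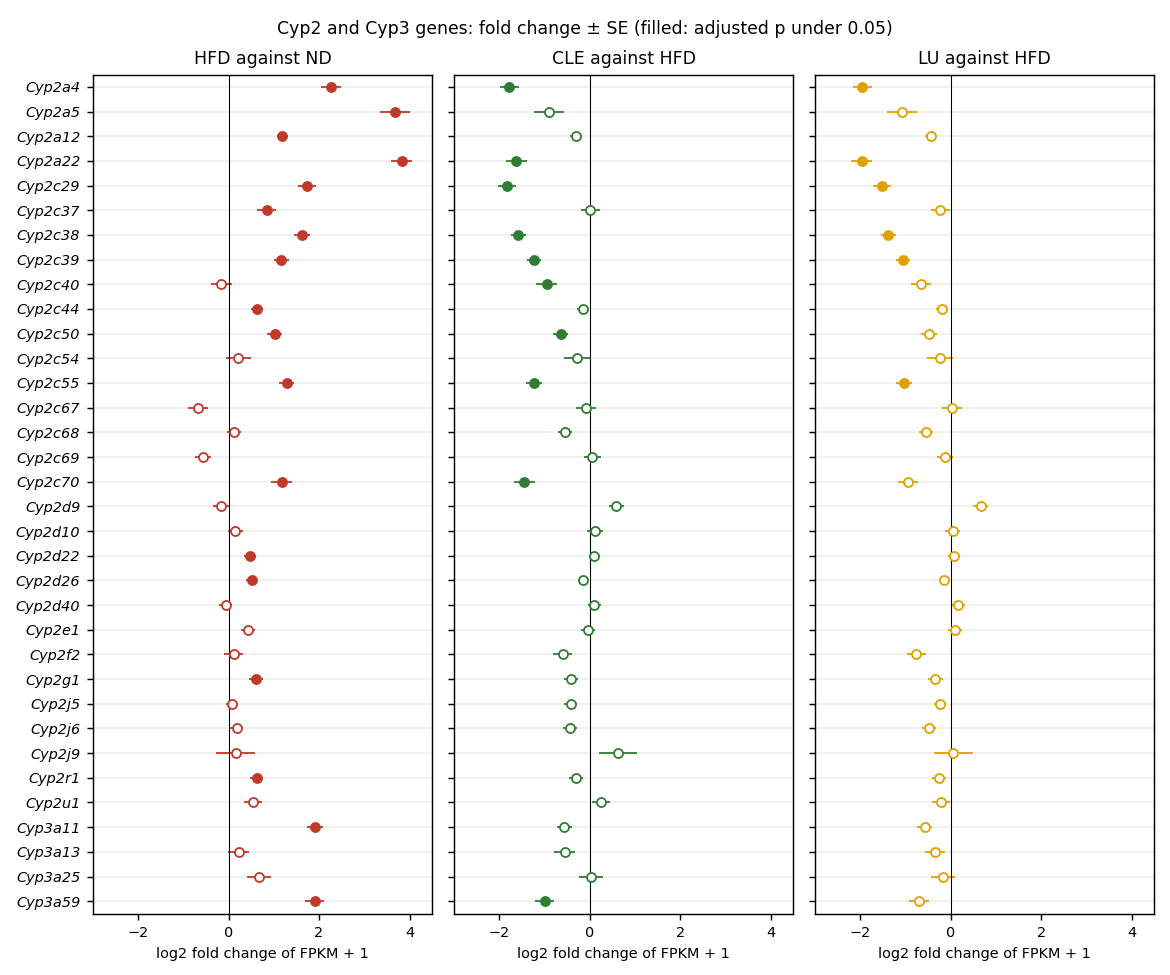
Log2 fold change of FPKM + 1 with its SE for the 34 members, with 1 panel each for HFD against ND, for CLE against HFD and for LU against HFD (3 livers per group). Filled points passed an adjusted p of 0.05, namely 18, 10 and 6 members. Cyp2a22, Cyp2a5 and Cyp2a4 lie farthest to the right in the HFD panel, and every filled point in the other panels lies left of 0.

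All 4 Cyp2a genes rose with the HFD, and Cyp2a22, Cyp2a5 and Cyp2a4 had the largest log2 fold changes of the 34 members. Cyp2a5, which hydroxylates coumarin and nicotine, was at 28.9, 37.3 and 58.2 FPKM in ND livers, 443.2, 553.3 and 579.8 in HFD livers, 223.5, 289.98 and 336.2 in CLE livers, and 144.7, 230.3 and 448.1 in LU livers. The ND and HFD livers did not overlap, and 1 LU liver reached the HFD range. Its log2 fold change was 3.68 ± 0.34 (SE) in HFD compared to ND livers (12.8-fold, adjusted p = 4.71e-05), and differences that did not pass in CLE (-0.90 ± 0.34, adjusted p = 0.105) and LU livers (-1.08 ± 0.34, adjusted p = 0.124) compared to HFD livers. Compared to ND livers it was 6.87-fold higher in CLE (adjusted p = 6.98e-04) and 6.07-fold higher in LU livers (adjusted p = 0.00115). A transcript that runs 109 kb beyond the gene carried 8.87% of the Cyp2a5 level.

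Cyp2a22 was at 1.81, 2.02 and 2.52 FPKM in ND livers, 40.2, 41.5 and 48.4 in HFD livers, 11.4, 14.1 and 14.8 in CLE livers, and 6.63, 9.76 and 16.6 in LU livers. It was thus low in ND, highest in HFD and between them in both supplemented groups, with no overlap among ND, HFD and the supplemented livers. The HFD raised it 14.3-fold (log2 3.83 ± 0.23, adjusted p = 2.93e-06), and it fell by 1.62 ± 0.23 on the log2 scale in CLE (adjusted p = 0.00587) and fell by 1.97 ± 0.23 in LU livers (adjusted p = 0.00213). Cyp2a12, its close copy, which hydroxylates testosterone and secondary bile acids, was at 241.9, 268.1 and 282.7 FPKM in ND, 578.0, 582.6 and 642.8 in HFD, 430.3, 476.1 and 550.7 in CLE, and 405.9, 440.5 and 484.1 in LU livers. It rose 2.27-fold with the HFD (adjusted p = 9.03e-05), and differences of -0.31 ± 0.12 in CLE (adjusted p = 0.115) and -0.44 ± 0.12 in LU livers (adjusted p = 0.0933) did not pass. As a percent of Cyp2a12, Cyp2a22 was 0.673 to 1.04 in ND, 6.90 to 7.53 in HFD, 2.07 to 3.28 in CLE and 1.63 to 3.43 in LU livers, so the pair did not move in a fixed proportion.

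Cyp2a4, a testosterone hydroxylase made mainly by females, was near the floor of these male livers. It was at 0.0498, 0.0578 and 0.402 FPKM in ND, 4.00, 4.18 and 5.66 in HFD, 0.201, 0.657 and 1.13 in CLE, and 0.237, 0.336 and 0.773 in LU livers. It rose by 2.26 ± 0.21 with the HFD (adjusted p = 4.81e-05), and fell by 1.78 ± 0.21 in CLE (adjusted p = 0.00225) and fell by 1.96 ± 0.21 in LU livers (adjusted p = 0.00138). As a percent of Cyp2a5, its level was 0.155 to 0.691 in ND, 0.689 to 1.28 in HFD, 0.0694 to 0.335 in CLE and 0.0750 to 0.534 in LU livers, so the ND and HFD ranges met. Given the identity of the pair, fragments of Cyp2a5 counted as Cyp2a4 were not tested for.

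**Figure D2:**
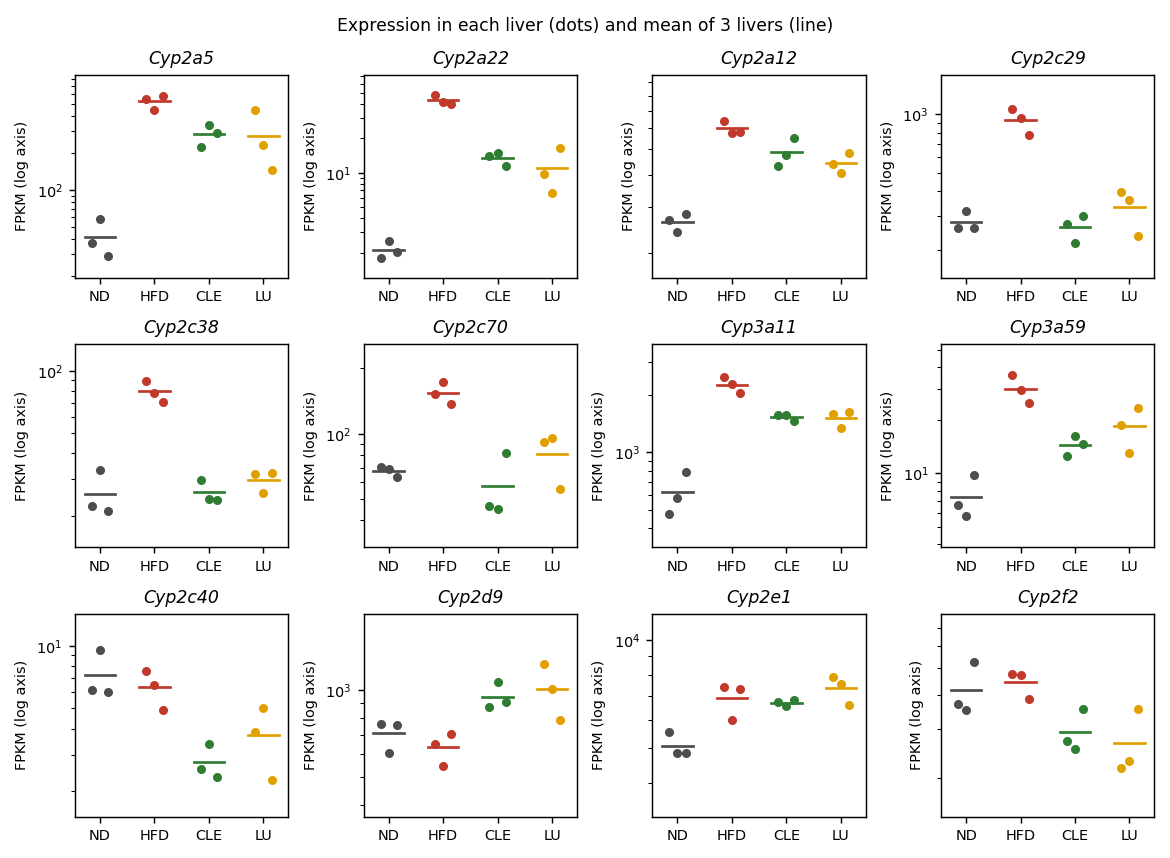
FPKM (log axis, a separate range for each gene) in each liver by group, with the mean of 3 livers as a line, for 12 members. Cyp2a5, Cyp2a22, Cyp2c29, Cyp2c38, Cyp3a11 and Cyp3a59 are highest in the HFD group, while Cyp2d9 is higher in the CLE and LU groups than in the HFD group.

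Of the 13 Cyp2c genes, which oxidize arachidonic acid, retinoids and bile acids as well as drugs, 8 rose with the HFD. Summed over the subfamily, the level was 1260 ± 45.2 FPKM in ND, 2450.3 ± 343 in HFD, 1361 ± 167 in CLE and 1466 ± 269 in LU livers. Compared to HFD livers, 7 Cyp2c genes fell with CLE and 4 with LU.

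Cyp2c29, an arachidonic acid epoxygenase and a known target of CAR, was at 259.1, 260.5 and 316.4 FPKM in ND, 781.8, 960.03 and 1066 in HFD, 216.0, 270.8 and 298.5 in CLE, and 235.8, 363.2 and 396.5 in LU livers. The HFD livers stood apart from the other 9, which overlapped. It rose 3.34-fold with the HFD (adjusted p = 1.64e-04) and fell by 1.84 ± 0.20 on the log2 scale in CLE (adjusted p = 9.85e-04) and fell by 1.52 ± 0.20 in LU livers (adjusted p = 0.00448). Its difference from ND livers was -0.10 ± 0.20 in CLE (adjusted p = 0.730) and 0.22 ± 0.20 in LU livers (adjusted p = 0.435).

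Cyp2c38, a second epoxygenase, was at 21.1, 22.3 and 33.1 FPKM in ND, 70.5, 78.3 and 89.7 in HFD, 23.8, 24.0 and 29.8 in CLE, and 25.8, 31.7 and 31.96 in LU livers. Only the HFD livers were set apart. It rose 3.08-fold (adjusted p = 9.03e-05) and fell by 1.58 ± 0.17 in CLE (adjusted p = 9.85e-04) and fell by 1.39 ± 0.17 in LU livers (adjusted p = 0.00236). As a percent of Cyp2c29, its level was 8.11 to 10.5 in ND, 8.15 to 9.02 in HFD, 7.99 to 11.1 in CLE and 7.09 to 13.6 in LU livers.

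Cyp2c39, which hydroxylates retinoic acid, was at 2.23, 2.34 and 2.61 FPKM in ND, 5.71, 6.28 and 8.06 in HFD, 1.67, 2.36 and 2.84 in CLE, and 2.28, 2.53 and 3.23 in LU livers. It rose by 1.17 ± 0.16 (adjusted p = 5.69e-04) and fell by 1.23 ± 0.16 in CLE (adjusted p = 0.00296) and fell by 1.06 ± 0.16 in LU livers (adjusted p = 0.0095). Without LU mouse 3 the latter did not pass (adjusted p = 0.0587). Cyp2c55, which makes hydroxylated products of arachidonic acid, was low, at 0.317, 0.530 and 0.622 FPKM in ND, 2.02, 2.93 and 2.95 in HFD, 0.305, 0.577 and 0.758 in CLE, and 0.441, 0.749 and 1.15 in LU livers. It rose by 1.28 ± 0.17 (adjusted p = 5.14e-04) and fell by 1.23 ± 0.17 in CLE (adjusted p = 0.00463) and fell by 1.04 ± 0.17 in LU livers (adjusted p = 0.0144). The LU call was lost without HFD mouse 15, HFD mouse 18 or LU mouse 3, with adjusted p up to 0.106 over all alternatives. For Cyp2c39 and Cyp2c55 the HFD livers lay above all others.

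Cyp2c70, the enzyme that makes the muricholic acids of the mouse, was at 63.1, 69.3 and 70.7 FPKM in ND, 137.2, 153.0 and 172.4 in HFD, 45.2, 46.9 and 81.6 in CLE, and 55.7, 91.8 and 95.96 in LU livers. The CLE and LU livers spread over the ND range on both sides. The gene rose 2.25-fold with the HFD (adjusted p = 0.0063) and fell by 1.45 ± 0.23 in CLE livers (adjusted p = 0.0107), while the difference in LU livers was -0.95 ± 0.23 (adjusted p = 0.0684). The CLE call was lost without HFD mouse 15 (adjusted p = 0.0669), and the HFD call with the highest transcript in place of the sum (adjusted p = 0.0879).

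Cyp2c50, an epoxygenase, was at 211.5, 247.9 and 266.3 FPKM in ND, 437.98, 448.1 and 593.6 in HFD, 279.9, 292.9 and 371.4 in CLE, and 281.98, 366.4 and 416.5 in LU livers. It rose 2.02-fold (adjusted p = 0.0028), and fell by 0.64 ± 0.17 in CLE livers at an adjusted p of 0.0478 that was lost when any HFD mouse, CLE mouse 2 or CLE mouse 4 was left out (up to 0.171 over all alternatives). In LU livers the difference was -0.48 ± 0.17 (adjusted p = 0.163). Cyp2c37 rose from 129.2 ± 6.96 to 237.8 ± 63.0 FPKM (adjusted p = 0.0195), and was 238.98 ± 59.5 in CLE and 200.3 ± 36.7 in LU livers. Cyp2c44, which makes epoxides of arachidonic acid, rose from 123.3 ± 14.7 to 191.1 ± 12.7 FPKM (adjusted p = 0.00817), and was 173.2 ± 25.9 in CLE and 165.8 ± 15.4 in LU livers. Neither passed in CLE or LU compared to HFD livers, where Cyp2c37 differed by 0.01 ± 0.21 and Cyp2c44 by -0.15 ± 0.13 in the CLE group.

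The remaining 5 Cyp2c genes did not rise with the HFD. Cyp2c40, made mainly by females, was at 6.01, 6.12 and 9.52 FPKM in ND, 4.90, 6.46 and 7.56 in HFD, 2.35, 2.55 and 3.38 in CLE, and 2.26, 3.85 and 5.03 in LU livers. The ND and HFD livers overlapped (-0.16 ± 0.23, adjusted p = 0.706), and the CLE livers lay below both. It fell by 0.95 ± 0.23 in CLE compared to HFD livers (adjusted p = 0.037), a call lost when any HFD mouse, CLE mouse 4 or CLE mouse 11 was left out (up to 0.223 over all alternatives). Compared to ND livers it fell by 1.11 ± 0.23 in CLE livers (adjusted p = 0.00684). It was the single member that fell in the CLE group without having risen in the HFD group.

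Cyp2c67 averaged 177.2 ± 55.6 FPKM in ND, 107.2 ± 10.3 in HFD, 102.2 ± 14.2 in CLE and 110.05 ± 22.5 in LU livers, and its difference between HFD and ND livers was -0.67 ± 0.22 (adjusted p = 0.0679), while it fell by 0.74 ± 0.22 in CLE compared to ND livers (adjusted p = 0.0274). Cyp2c68 averaged 84.2 ± 15.1, 90.1 ± 6.30, 61.9 ± 10.5 and 61.4 ± 7.22 FPKM in the same order, with -0.55 ± 0.16 in CLE (adjusted p = 0.054) and -0.55 ± 0.16 in LU compared to HFD livers (adjusted p = 0.1). Cyp2c54 averaged 120.98 ± 16.5, 145.0 ± 47.4, 118.0 ± 30.8 and 123.3 ± 41.6 FPKM, with no difference that passed. Cyp2c69, just above the minimum with a mean of 0.558 FPKM over 12 livers, was at 0.601, 1.11 and 1.57 FPKM in ND, 0.301, 0.401 and 0.471 in HFD, 0.253, 0.397 and 0.737 in CLE, and 0.0519, 0.323 and 0.482 in LU livers. All HFD livers lay below the ND livers (-0.57 ± 0.18, adjusted p = 0.0632), and the LU livers fell below ND livers (-0.69 ± 0.18, adjusted p = 0.0275).

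Neighbouring Cyp2c genes could be set side by side along the chromosome. In the annotation, 12 of the 13 Cyp2c genes lie within 1146 kb of chromosome 19 (GRCm38), measured between lower ends from chr19:39007019-39042693 for Cyp2c55 to chr19:40153353-40187333 for Cyp2c70, and Cyp2c44 lies 4998 kb from the first. The first 4 genes, Cyp2c55, Cyp2c29, Cyp2c38 and Cyp2c39, rose with the HFD by 1.17 to 1.74 on the log2 scale, and all 4 fell in CLE and LU livers. The next 4, Cyp2c67, Cyp2c68, Cyp2c40 and Cyp2c69, had differences of -0.67 to 0.11 between HFD and ND livers, none of which passed. These are the 4 neighbours whose promoter windows with CAAAGTCCA are near copies. Cyp2c70 and Cyp3a11, which also hold the motif, both rose with the HFD. Of the last 4, Cyp2c37, Cyp2c50 and Cyp2c70 rose and Cyp2c54 did not pass. This order was looked up with the values known and carries no test.

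**Figure D3:**
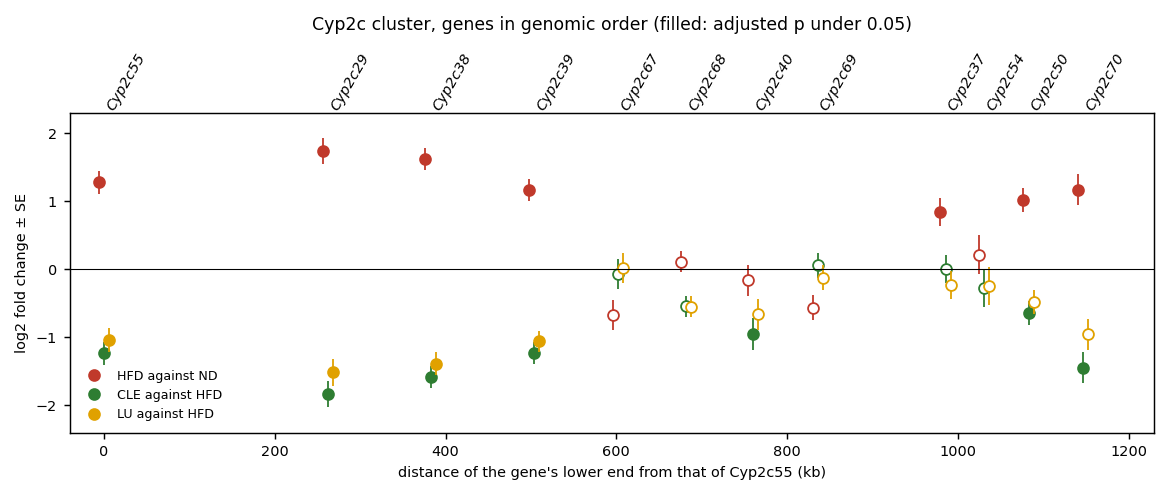
Log2 fold change with SE of the 12 clustered Cyp2c genes, placed by the distance of each gene's lower end from that of Cyp2c55 in kb. HFD against ND is in red, CLE against HFD in green and LU against HFD in yellow, with filled points for an adjusted p under 0.05. The red points lie above 1 for the first 4 genes, at or below 0.11 for the next 4, and above 0.8 for 3 of the last 4.

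Cyp3a11, the most abundant Cyp3a gene and the classic PXR target, was at 474.4, 577.8 and 792.3 FPKM in ND, 2055, 2286 and 2486 in HFD, 1462, 1568 and 1581 in CLE, and 1339, 1599 and 1635 in LU livers. The ND livers lay below all others and the HFD livers above all others. It rose 3.77-fold with the HFD (log2 1.91 ± 0.17, adjusted p = 3.88e-05) and was still 2.55-fold higher than in ND livers in the CLE group (adjusted p = 7.98e-04) and 2.52-fold higher in the LU group (adjusted p = 0.00111). Compared to HFD livers the differences were -0.56 ± 0.17 in CLE (adjusted p = 0.0634) and -0.58 ± 0.17 in LU livers (adjusted p = 0.112). An assembled transcript that runs 259 kb beyond the gene carried 318.8 ± 37.4 FPKM of this level in HFD livers, compared to 45.4 ± 75.5 in CLE and 33.6 ± 51.4 in LU livers. With known transcripts only, the differences from HFD livers were -0.39 in both the CLE (adjusted p = 0.169) and the LU group (adjusted p = 0.217).

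Cyp3a59 was at 5.75, 6.67 and 9.75 FPKM in ND, 24.97, 29.6 and 35.9 in HFD, 12.6, 14.7 and 16.3 in CLE, and 13.1, 18.9 and 23.3 in LU livers. It rose 3.75-fold with the HFD (adjusted p = 1.61e-04), and fell by 1.00 ± 0.21 in CLE livers (adjusted p = 0.0308), a call lost when any HFD mouse or CLE mouse 4 was left out (up to 0.118 over all alternatives). In LU livers the difference was -0.70 ± 0.21 (adjusted p = 0.119). Cyp3a25, its copy with the same promoter half-sites, averaged 424.05 ± 103 FPKM in ND, 664.4 ± 81.6 in HFD, 700.9 ± 248 in CLE and 602.9 ± 179 in LU livers, and its difference between HFD and ND livers was 0.67 ± 0.27 (adjusted p = 0.127). Of that level, 40.2% came from a transcript that runs 95.1 kb beyond the gene. As a percent of Cyp3a25, Cyp3a59 was 1.37 to 2.04 in ND, 3.55 to 5.19 in HFD, 1.66 to 2.73 in CLE and 2.997 to 3.18 in LU livers. Cyp3a13 averaged 73.4 ± 22.9, 83.3 ± 2.42, 56.5 ± 4.10 and 67.7 ± 24.9 FPKM in ND, HFD, CLE and LU livers, and no difference from HFD livers passed.

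Of the 5 Cyp2d genes, Cyp2d22 and Cyp2d26 rose with the HFD, and none passed in CLE or LU compared to HFD livers. Cyp2d9, a testosterone hydroxylase made mainly by males, was at 603.4, 753.4 and 764.1 FPKM in ND, 544.0, 649.3 and 701.2 in HFD, 875.9, 904.7 and 1063 in CLE, and 785.8, 1008 and 1228 in LU livers. All CLE and LU livers lay above all HFD and ND livers. The differences from HFD livers were 0.59 ± 0.17 in CLE (adjusted p = 0.057) and 0.66 ± 0.17 in LU livers (adjusted p = 0.0843), and neither passed. Cyp2d26 rose from 452.6 ± 35.6 to 643.1 ± 42.5 FPKM with the HFD (adjusted p = 0.0136), and Cyp2d22 from 81.6 ± 7.27 to 114.05 ± 7.01 (adjusted p = 0.03). Known transcripts held 12.3% of the Cyp2d22 level. In CLE and LU livers Cyp2d26 averaged 582.1 ± 34.0 and 581.6 ± 51.5 FPKM, and Cyp2d22 123.4 ± 19.8 and 120.6 ± 13.5. Cyp2d10 (401.7 ± 70.1 to 482.0 ± 95.3 FPKM over the group means) and Cyp2d40 (69.9 ± 7.07 to 79.0 ± 11.5 FPKM) had no difference that passed. Transcripts antisense to Cyp2d10 held 1.04% and 2.15% of its level.

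Cyp2e1, which oxidizes ethanol and acetaminophen, had the highest level of all members, at 4850.1, 4850.8 and 5570 FPKM in ND, 6003, 7313 and 7392 in HFD, 6551, 6711 and 6827 in CLE, and 6596, 7526 and 7883 in LU livers. All ND livers lay below the other 9. The difference between HFD and ND livers was 0.44 ± 0.15 (adjusted p = 0.0874), and in LU compared to ND livers it rose by 0.53 ± 0.15 (adjusted p = 0.0394). Of the Cyp2e1 level, 99.3% was in an assembled transcript and 0.659% in the known ones, and with known transcripts only the difference between LU and ND livers was -0.11 (adjusted p = 0.781). Compared to HFD livers it was -0.04 ± 0.15 in CLE and 0.09 ± 0.15 in LU livers.

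Cyp2f2, a naphthalene-activating enzyme of periportal hepatocytes, was at 352.3, 371.2 and 525.9 FPKM in ND, 386.6, 471.2 and 475.5 in HFD, 255.6, 272.5 and 355.5 in CLE, and 217.2, 230.2 and 354.5 in LU livers. Both supplemented groups lay below all HFD livers and overlapped with ND livers. The differences from HFD livers were -0.60 ± 0.21 in CLE (adjusted p = 0.0843) and -0.76 ± 0.21 in LU livers (adjusted p = 0.0893). Cyp2j5, an epoxygenase, was at 241.9, 270.8 and 277.5 FPKM in ND, 262.4, 276.9 and 290.6 in HFD, 161.6, 222.7 and 242.5 in CLE, and 232.3, 232.6 and 238.3 in LU livers. It differed from HFD livers by -0.42 ± 0.14 in CLE livers (adjusted p = 0.0716). Cyp2j6 (31.0 ± 2.15 to 43.9 ± 3.11 FPKM over the group means) and Cyp2j9 (4.24 ± 1.86 to 9.73 ± 8.93), of the same subfamily, had no difference that passed. For Cyp2j9, 1 CLE liver, that of mouse 4, stood at 20.0 FPKM and the other 11 between 3.14 and 6.39.

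The members with low levels included Cyp2r1, which hydroxylates vitamin D. It was at 3.05, 3.19 and 4.28 FPKM in ND, 4.90, 5.59 and 7.35 in HFD, 4.05, 4.27 and 5.43 in CLE, and 4.68, 4.71 and 4.86 in LU livers. It rose by 0.62 ± 0.15 with the HFD (adjusted p = 0.0194). Cyp2u1, which hydroxylates long-chain fatty acids, was at 5.34, 5.40 and 6.14 FPKM in ND, 7.60, 8.70 and 9.75 in HFD, 7.79, 9.50 and 15.5 in CLE, and 6.13, 7.35 and 8.76 in LU livers. It was above the ND range in all HFD and CLE livers, and its difference was 0.54 ± 0.20 in HFD (adjusted p = 0.0962) and 0.80 ± 0.20 in CLE compared to ND livers (adjusted p = 0.0141). The latter call rested on assembled transcripts, since known transcripts gave -0.47 (adjusted p = 0.184). Cyp2g1, known from the olfactory mucosa, had a mean of 0.574 FPKM, at 0.142, 0.251 and 0.501 FPKM in ND, 0.775, 0.969 and 1.15 in HFD, 0.310, 0.460 and 0.649 in CLE, and 0.223, 0.639 and 0.825 in LU livers. It rose by 0.60 ± 0.16 with the HFD (adjusted p = 0.0292). Of the Cyp2g1 level, 97.7% was in an assembled transcript and 2.25% in known ones.

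Just below the minimum were Cyp2d11 with a mean of 0.407 FPKM and Cyp3a44 with 0.359. Cyp2d11 was at 0.293, 0.350 and 0.378 FPKM in ND, 0.368, 0.437 and 0.640 in HFD, 0.318, 0.441 and 0.4699 in CLE, and 0.278, 0.292 and 0.621 in LU livers. Cyp3a44, made mainly by females, was listed at 0 in 1 ND liver and at 0.200 and 0.263 FPKM in the other ND livers, 0.451, 0.618 and 0.675 in HFD, 0.225, 0.387 and 0.4303 in CLE, and 0.159, 0.434 and 0.467 in LU livers. These levels are too low to rank.

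**Figure D4:**
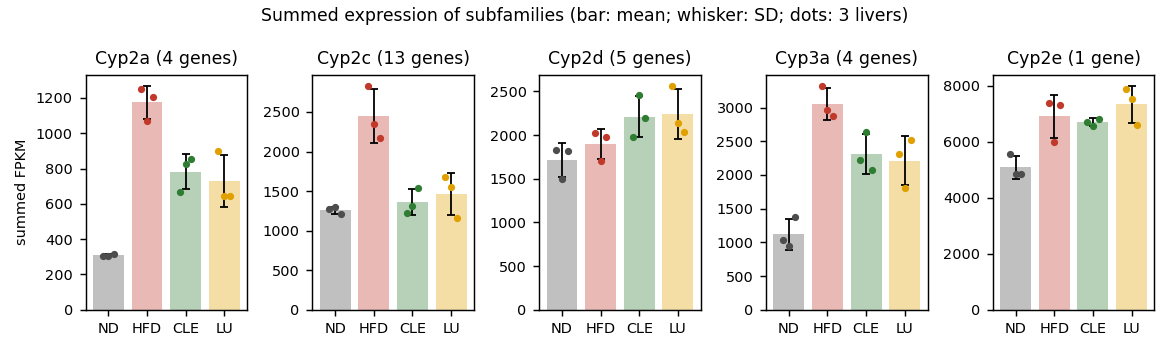
Summed FPKM of the Cyp2a, Cyp2c, Cyp2d, Cyp3a and Cyp2e subfamilies in each liver (dots), with the mean as a bar from 0 and the SD as a whisker, 3 livers per group. Cyp2a, Cyp2c and Cyp3a have their highest bar in the HFD group, Cyp2c returns from 2450.3 to 1361 and 1466 FPKM in the CLE and LU groups, Cyp2d has its highest bars in the CLE and LU groups, and Cyp2e1 has means of 6696 to 7335 FPKM outside the ND group.

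The subfamilies differed in how far the supplemented livers lay from the ND livers. Of the 34 members, 12 differed between CLE and ND livers, of which 10 were higher and 2 lower, compared to 27% of all genes in either direction, 20.9% higher and 6.08% lower. The CLE livers lay above all ND livers for 14 members (32.2% of all genes) and below them for 1 (10.1%). Of the 34, 10 differed between LU and ND livers, of which 8 were higher and 2 lower, compared to 14.9% of all genes, 11.2% higher and 3.78% lower. The LU livers lay above all ND livers for 13 (29.4% of all genes) and below them for 3 (11.5%). Among those higher in both were Cyp2a5, Cyp2a12, Cyp2a22, Cyp3a11, Cyp3a59, Cyp2c44 and Cyp2d22. Those lower were Cyp2c40 in both groups, Cyp2c67 in the CLE group and Cyp2c69 in the LU group. With each liver left out in turn, 9 of the 12 calls held throughout in the CLE group, all but those of Cyp2c44, Cyp2c67 and Cyp2d26. In the LU group 5 of the 10 held throughout, those of Cyp2a5, Cyp2a12, Cyp2a22, Cyp3a11 and Cyp3a59, and the count was 5 without ND mouse 2 or LU mouse 2 and 6 without ND mouse 3. In every alternative that kept the gene, 3 of the 12 CLE calls held, those of Cyp2a5, Cyp2a22 and Cyp3a11. Of the 10 LU calls, 0 did. The alternatives here included the mouse number as a block. Cyp2c29, Cyp2c38, Cyp2c39 and Cyp2c55 passed in neither, with differences from ND livers of -0.10 to 0.05 in the CLE group and 0.11 to 0.24 in the LU group. As summed levels, Cyp2a was 783.0 ± 99.9 FPKM in CLE and 729.3 ± 147 in LU livers, compared to 308.0 ± 5.38 in ND and 1175 ± 94.4 in HFD livers. Cyp3a was 2309 ± 294 in CLE and 2213 ± 363 in LU livers, compared to 1119.7 ± 230 in ND and 3053 ± 240 in HFD livers. Scaling mattered most for these comparisons with ND livers. After median-of-ratios scaling, which moved the median of all genes from 0.16 to 0.02 in CLE and from 0.12 to 0.02 in LU compared to ND livers, the members split into 7 higher and 6 lower, and 5 higher and 5 lower. Over all 11566 genes, the same scaling gave 1219 higher and 1618 lower in CLE livers, and 709 higher and 1032 lower in LU livers.

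No member separated CLE from LU livers, with 0 of 34 members past limma's adjusted threshold and 2, Cyp2c70 and Cyp2u1, at an unadjusted p under 0.05 (0.00865% of all genes passed the adjusted threshold, which is 1 gene). The livers overlapped for all 34, compared to 4.66% of genes with all CLE livers above all LU livers and 2.42% with all below. The smallest adjusted p of a member was 0.969. The 95% intervals of the log2 differences ranged from -0.99 to 1.49 over the members, from Cyp2c70 at the low end to Cyp2j9, the member with the widest interval, at the high end. Equal levels were not shown.

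Among the partners of P450 enzymes, 2 of 6 electron supply genes rose with the HFD and 0 fell, compared to the 9.99% and 2.11% of all genes given above. Pgrmc1, a heme-binding partner of P450 enzymes, rose from 523.6 to 888.2 FPKM (log2 0.76 ± 0.11, adjusted p = 0.00104), and Cyb5a, the microsomal cytochrome b5, from 698.0 to 1121 (0.68 ± 0.18, adjusted p = 0.0297). Cyb5b, the outer mitochondrial form, fell from 104.8 FPKM in HFD to 59.2 in CLE (adjusted p = 0.025) and 60.3 in LU livers (adjusted p = 0.0449), calls lost when any HFD mouse was left out (up to 0.128 and 0.220 over all alternatives). The Cyb5a call was lost without ND mouse 2 or 3 or HFD mouse 12 or 18 (up to 0.137). Por, the reductase itself, averaged 181.2, 199.6, 247.4 and 225.4 FPKM in ND, HFD, CLE and LU livers without a difference that passed. Of 12 heme genes, Hmox1 (heme oxygenase, 0.80 ± 0.14, adjusted p = 0.0027) and Blvrb (0.82 ± 0.20, adjusted p = 0.0209) rose with the HFD and Alad, of heme synthesis, rose in CLE compared to HFD livers (0.64 ± 0.16, adjusted p = 0.0437), while none passed in the LU group. Of these, the Hmox1 call held in every alternative, while that of Blvrb (up to 0.0806) and that of Alad (up to 0.166) were lost without 4 or 5 of the 6 livers compared, each in turn.

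Of 18 transcription factors tested, 4 rose with the HFD and 1 fell, compared to 9.99% and 2.11% of all genes. Nr1i3 (CAR) rose from 102.3 ± 26.9 to 192.0 ± 16.7 FPKM (adjusted p = 0.0326), and was 277.03 ± 111 in CLE and 192.9 ± 35.1 in LU livers. Nr0b2 (SHP, a bile acid responsive repressor) rose from 10.6 ± 4.51 to 35.2 ± 11.1 FPKM (adjusted p = 0.024), Ahr by 0.84 ± 0.21 (adjusted p = 0.0209) and Stat5a by 0.78 ± 0.19 (adjusted p = 0.0189), and Foxa3 fell by 0.57 ± 0.15 (adjusted p = 0.0265). Nr1i2 (PXR) averaged 35.7 ± 1.88, 36.9 ± 1.51, 48.9 ± 11.3 and 47.8 ± 9.31 FPKM in ND, HFD, CLE and LU livers. Foxa3 rose in CLE compared to HFD livers (0.65 ± 0.15, adjusted p = 0.0339), and no factor passed in the LU group. None of these calls held throughout. With 1 of 6 livers left out, those of Nr1i3 and of Foxa3 with the HFD were lost in 5 of 6 fits, those of Nr0b2 and Ahr in 4 and that of Stat5a in 3, and over all alternatives their adjusted p reached, in that order, 0.11, 0.108, 0.0909, 0.365 and 0.912. That of Foxa3 in CLE livers reached 0.119, lost without any HFD mouse.

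Genes of the central vein zone rose with the HFD as well. Of 8 pericentral genes, 5 rose with the HFD and 0 fell, compared to 9.99% and 2.11% of all genes. Among those that rose were Glul, the glutamine synthetase that marks the zone (499.8 to 959.1 FPKM, adjusted p = 0.002), Lect2 (70.8 to 191.2 FPKM, adjusted p = 1.09e-04) and Rhbg (5.35 to 12.2 FPKM, adjusted p = 0.0039). Compared to HFD livers Lect2 fell in CLE livers, to 123.4 FPKM (adjusted p = 0.0356, lost without any HFD mouse or CLE mouse 4, up to 0.139), and in LU livers none of the 8 passed. Of 8 periportal genes, which include Cyp2f2, 2 fell with the HFD (Cdh1 and Pck1), and none passed in CLE or LU compared to HFD livers. Of 15 clock genes, Ciart and Hlf rose and Nfil3 fell with the HFD, and none passed in CLE or LU compared to HFD livers. In each supplemented group 9 differed from ND livers, compared to 27% of all genes for CLE and 14.9% for LU. What part zonation or the clock had in the P450 differences was not tested.

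By the roles of the members, 6 of 10 arachidonic acid epoxygenases rose with the HFD, 5 fell in CLE and 4 in LU compared to HFD livers, where the shares over all genes were 9.99% higher, 3.29% lower and 0.726% lower. These genes are among the members counted above. Of 7 Cyp2 and Cyp3 genes made mainly by females, 4 were below the minimum and 1 of the other 3, Cyp2a4, rose with the HFD. Compared to HFD livers, Cyp2a4 and Cyp2c40 fell in the CLE group and Cyp2a4 in the LU group. Cyp2c69 passed in none of these comparisons. Markers of other cells moved in these livers too. In HFD compared to ND livers, 4 of 6 Kupffer cell and macrophage markers and 6 of 7 stellate cell markers rose. So did 1 of 6 endothelial markers, and over all genes tested 9.99% rose. The adipocyte gene Cfd and the gut gene Fabp2 also rose, and 0 of 3 cholangiocyte and 0 of 3 lymphocyte markers passed. The summed macrophage markers were 99.3 to 111 FPKM in ND, 147 to 221 in HFD, 148 to 188 in CLE and 112 to 191 in LU livers. The summed stellate markers were 65.1 to 93.4 FPKM in ND, 121 to 149 in HFD, 122 to 191 in CLE and 115 to 159 in LU livers. Adipocyte markers summed to 0.995 to 1.67 FPKM in ND and 59.0 to 104 in HFD, 21.9 to 150.4 in CLE and 72.3 to 266 in LU livers, and kidney markers to at most 0.0188. Of the 5 adipocyte markers only Cfd reached the minimum mean and was tested, and of the 3 gut markers only Fabp2. None of the 8 hepatocyte markers passed in HFD compared to ND livers, though albumin was listed at 0 in 11 of the 12 livers. In CLE compared to HFD livers Apoa1 and Serpina1a rose, and in LU livers Serpina1a, and of the other cell markers the stellate gene Des rose in CLE livers. The part of other cells in the P450 differences was not tested.

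The libraries differed in ways that fall together with the groups. Size factors by median of ratios ran from 0.894 to 1.06, with the 3 ND livers among the 4 lowest. The deviation of a gene's level from its mean over libraries correlated with its GC content, with Spearman's rho from -0.41 to -0.13 in the ND and HFD livers and from 0.19 to 0.51 in the CLE and LU livers across 7107 genes, so this property and the supplements cannot be told apart. A correction for GC content and length left 13 members higher and 2 lower in HFD compared to ND livers, 7 lower in CLE and 6 lower in LU compared to HFD livers. Over the 11413 genes it covered, 670 were higher and 638 lower in HFD compared to ND livers. Compared to HFD livers, 318 of these genes were lower in CLE and 72 in LU livers. As deposited, all genes had a median of 0.11 in HFD compared to ND livers. Median-of-ratios scaling brought it to -0.01 and left 14 members higher and 2, Cyp2c67 and Cyp2c69, lower. Over all 11566 genes, that scaling left 620 higher and 504 lower. Of the 18 members raised by the HFD, 11 passed in every alternative that kept the gene, namely all 4 Cyp2a genes, Cyp2c29, Cyp2c38, Cyp2c39, Cyp2c50, Cyp2c55, Cyp3a11 and Cyp3a59. The calls of Cyp2c37, Cyp2c44, Cyp2d22, Cyp2d26, Cyp2g1 and Cyp2r1 were lost under a scaling or a correction for GC content and length, and reached adjusted p of 0.0808, 0.0564, 0.180, 0.119, 0.124 and 0.0796 over all alternatives. Left out 1 at a time, ND mouse 2 or 3 or HFD mouse 12 ended the calls of Cyp2c37 and Cyp2d22, the latter also HFD mouse 18. ND mouse 3 or HFD mouse 12 or 18 ended that of Cyp2d26, ND mouse 2 or 4 or HFD mouse 12 or 18 that of Cyp2g1, and ND mouse 2 or 4 or HFD mouse 15 that of Cyp2r1. In every such alternative, Cyp2a4, Cyp2a22, Cyp2c29, Cyp2c38, Cyp2c39 and Cyp2c55 fell in CLE livers, and Cyp2a4, Cyp2a22, Cyp2c29 and Cyp2c38 in LU livers, compared to HFD livers.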

How the data were processed

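Livers of 12 mice were sequenced, 3 per group, with groups and mouse numbers taken from the sample labels. Per the submitters' processing notes and the study's methods, paired reads of 100 bases were processed with CASAVA 1.8.2, Bowtie2 2.2.3, TopHat2 2.0.12 and Cufflinks 2.2.1. The authors deposited FPKM values of 152210 transcripts, 73424 of them assembled, from an assembly that names 30 samples. The methods name DEGES/edgeR normalization factors, and whether the deposited values include them is not given in the sources used here, nor is the genome build. GENCODE M21 on GRCm38 was used for coordinates, since 85.5% of known transcripts match it in both ends. FPKM values hold estimates shared out among transcripts, so the depth is unknown, no counting error can be given, and a 0 can be a failed estimate.

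FPKM was summed per gene name. The 6316 transcripts with no name (13.9% to 23.7% of all FPKM) were left out. The groups were compared with limma 3.58.1 in R 4.3.3 on log2(FPKM + 1), with the variance trend, all 12 livers in one fit (12.8 degrees of freedom) and Benjamini-Hochberg adjustment over 11566 genes at 0.05. Fold changes are on the log2(FPKM + 1) scale, which understates those of low genes. All tests are two-sided. The p-values measure the spread between these mice, and an exact permutation test of 3 against 3 livers could not go below 0.1. The fit was tested on simulated data.

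The members, the gene lists and the tests were chosen with earlier results of these data known. All livers are given for members that passed in HFD against ND, CLE against HFD or LU against HFD (up to 12 per comparison, by size), for the highest member of each subfamily and for those next to the minimum. Other genes are from the lists on electron supply, heme, transcription factors, sex, epoxygenases, zonation, the clock and cell types. Motifs and coding identity were computed with Python 3.11.15 and Biopython 1.88. Alternatives were a pseudocount of 0.1, quantile normalization, median-of-ratios scaling, no filter, a minimum mean of 5 FPKM, no variance trend, the 2 groups compared alone, known transcripts only, the highest transcript, a correction for GC content and length (mgcv 1.9.3), the mouse number as a block and each liver left out. Added after seeing the data were fits without antisense, intronic or unmatched transcripts, and sums by M21 gene.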

Additional observations from a re-analysis of the deposited data

How the results depend on the processing

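Members past the threshold numbered 13 to 21 over the alternatives in HFD against ND, and 14 to 18 with 1 liver left out. In CLE against HFD they numbered 6 to 13, and 6 to 12 with 1 liver left out, with the low of 6 without HFD mouse 15. In LU against HFD they numbered 3 to 8, and 4 to 8 with 1 liver left out. The 3 came from a minimum mean of 5 FPKM, which kept 28 members. In CLE against ND they numbered 9 to 13 with 1 liver left out, and in LU against ND 5 to 10, with 5 without ND mouse 2 or LU mouse 2 and 6 without ND mouse 3. CLE against LU gave 0 in every alternative. Of 4446 single-gene values under an alternative, 3988 kept their side of the threshold, 388 lost and 68 gained the call, and 2 reversed. A change of direction was counted as reversed only where the main fit or the alternative passed. The 3988 can thus hold changes of direction where neither passed. Both reversals came with known transcripts only: Cyp2u1 in CLE against ND (-0.47) and Cyp2e1 in LU against ND (-0.11), whose levels are mostly in assembled transcripts. The CLE and LU mice share mouse numbers with the ND mice. With the number as a replicate block, over 9 livers, 3 members passed in CLE against ND and 0 in LU against ND. The deviations of same-numbered livers had correlations of -0.26 to 0.18. With 3 livers per group, these values cannot decide whether the numbers pair the mice. HFD mice share no number with the others and CLE and LU mice only 1, so their comparisons have no such fit. Depth is unknown and 3 livers per group limit the precision, with a median SE of 0.17 on the log2 scale.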

Other observations

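The pseudogene Cyp2d37-ps, which the selection leaves out, was measured at 48.2 ± 5.31 FPKM in ND, 49.5 ± 12.9 in HFD, 82.6 ± 8.03 in CLE and 85.8 ± 15.5 in LU livers (mean ± SD, n = 3). As for Cyp2d9, all CLE and LU livers lay above all ND and HFD livers. By limma it rose by 0.76 ± 0.18 on the log2 scale in CLE (adjusted p = 0.0382), and its difference in LU compared to HFD livers was 0.80 ± 0.18 (adjusted p = 0.063). The CLE call was lost when any HFD mouse was left out.

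Of the 19 Cyp2 and Cyp3 names below the minimum, 6 were listed at 0 in all 12 livers, and no single liver exceeded 0.675 FPKM. An assembled transcript that runs 13.7 kb beyond Cyp2j5 averaged 30.8 ± 11.8 FPKM in ND, 21.8 ± 13.0 in HFD, 2.56 ± 1.06 in CLE and 3.61 ± 3.68 in LU livers, and the one beyond Cyp3a11 fell in the same groups (318.8 ± 37.4 in HFD, 45.4 ± 75.5 in CLE and 33.6 ± 51.4 in LU livers), as values with no test.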
